A study of Mus musculus with 8 samples.

Results

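The 8 genes described here, Afp, Gpc3, Tspan8, Cdh17, Spink1, Ly6d, Csn3 and Apela, were close to silent in adult control mouse liver and expressed in livers exposed to diethylnitrosamine and carbon tetrachloride. They were chosen by name from the 17164 genes of the table for that pattern, so their contrast between exposed and control livers is a description and carries no test. All 8 passed the low-value filter that left 11606 genes for testing, an FPKM (read fragments scaled to gene length and library size) of at least 1 in at least 2 libraries.

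Liver of male C57BL/6 mice was sequenced from 4 groups of 6 mice, with 2 livers per group picked at random. The DEN+CCl4 group received an abdominal injection of diethylnitrosamine (DEN, 0.67%), a carcinogen that liver enzymes activate, at 2 weeks of age. From 8 weeks until sacrifice at 22 weeks it received carbon tetrachloride (CCl4, 20% in olive oil), a liver toxin. The DWYG-M group received the same DEN and CCl4 and was given the herbal capsules Diwu Yanggan (DWYG) from week 17 at 1 times the clinical equivalent dose. The DWYG-H group received DEN, CCl4 and, from the same week, DWYG at 2 times that dose. Control mice were injected with saline where the others got DEN, and what they received in place of CCl4 is not stated. The labels give neither the part of the liver taken nor whether it held a tumour.

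Oncofetal genes are active in the embryo, are shut down in the adult organ and are switched on again in its tumours. Afp and Gpc3 are the textbook cases in liver: alpha-fetoprotein is the major serum protein of the fetus, and glypican-3 is a surface proteoglycan used as a tissue marker of human hepatocellular carcinoma. The other 6 genes are best known from other tissues, among them gut, pancreas, squamous epithelium, mammary gland and early embryo. No fetal liver was among the libraries, so the fetal side of the name was not checked in these data. Albumin (Alb), the defining product of hepatocytes, lay between 29953.32 and 60316.02 FPKM in all 8 libraries.

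Library totals ran from 17345627 to 19191382 counts. Log2 profiles of the replicates correlated across genes at r = 0.9605 in DEN+CCl4, against 0.978 to 0.984 in the other groups. The DEN+CCl4 livers thus differed most from each other, and values against this group that move most when one of them is left out are also given without it.

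Promoter sequences of the genes are shown because the genes were silent together in control liver. RefSeq (assembly GRCm38.p6) listed all 8 genes under the same ID and symbol, and its promoter table held 4 of them, as 250 bases before and 50 bases after the annotated start. Capitals mark matches to 4 short motifs: the HNF1 half-site GTTAAT, the FOXA core TGTTTNC and the TEAD core GGAATG on both strands, and the TATA box TATAAA on the strand shown. None of these motifs overlapped another in the windows. HNF1 and FOXA are liver transcription factors, and TEAD is the DNA-binding partner of YAP.
Afp, chr5:90490464-90490763, plus strand: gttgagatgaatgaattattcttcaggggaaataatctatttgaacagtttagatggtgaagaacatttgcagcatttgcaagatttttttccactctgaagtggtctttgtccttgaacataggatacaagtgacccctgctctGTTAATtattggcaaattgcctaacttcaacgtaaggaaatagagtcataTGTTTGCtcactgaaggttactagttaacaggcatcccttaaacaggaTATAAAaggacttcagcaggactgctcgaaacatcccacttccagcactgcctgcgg
Tspan8, chr10:115817034-115817333, plus strand: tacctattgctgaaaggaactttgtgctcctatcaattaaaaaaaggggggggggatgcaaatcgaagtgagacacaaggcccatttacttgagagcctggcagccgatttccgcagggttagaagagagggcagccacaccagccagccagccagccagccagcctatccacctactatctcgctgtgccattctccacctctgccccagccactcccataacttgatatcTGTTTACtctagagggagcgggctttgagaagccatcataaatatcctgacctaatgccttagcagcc
Apela, chr8:65037287-65037586, minus strand: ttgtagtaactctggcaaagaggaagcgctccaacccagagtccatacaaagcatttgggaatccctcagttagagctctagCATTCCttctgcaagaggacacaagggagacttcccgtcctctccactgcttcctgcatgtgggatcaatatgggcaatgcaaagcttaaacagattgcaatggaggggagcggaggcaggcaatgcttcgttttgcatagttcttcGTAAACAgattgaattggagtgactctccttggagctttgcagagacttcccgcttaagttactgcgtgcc
Gpc3, chrX:52613925-52614224, minus strand: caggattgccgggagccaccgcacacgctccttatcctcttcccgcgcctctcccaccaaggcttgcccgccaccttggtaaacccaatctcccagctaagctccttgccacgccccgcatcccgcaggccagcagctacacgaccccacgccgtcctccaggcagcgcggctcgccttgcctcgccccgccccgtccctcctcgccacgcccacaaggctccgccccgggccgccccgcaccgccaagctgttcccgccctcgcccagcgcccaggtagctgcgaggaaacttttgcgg

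The Afp window held the HNF1 half-site at bases 146 to 151, the FOXA core at bases 196 to 202 and the TATA box at bases 244 to 249. The Tspan8 window held the FOXA core at bases 233 to 239. The Apela window held that core at bases 230 to 236, read from the opposite strand, and the TEAD core at bases 83 to 88, also from the opposite strand. The Gpc3 window held none of the 4 motifs. Among all 32851 promoters of the same length, 7.1% held the HNF1 half-site, 20.5% the FOXA core, 8.32% the TATA box and 14.7% the TEAD core. The windows also differed in base composition. Gpc3 had 70.7% G and C with 30 CpG dinucleotides, and 91.8% of promoters had less G and C. Afp had 40.0% G and C with 3 CpG dinucleotides, and 10.1% of promoters had less. Tspan8 (51.7%) and Apela (49.0%) lay near the median promoter, at 52.7%. No motif was found in all 4 windows, and their base composition differed, in genes that were all near silent in control liver.

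The secreted products come first. Afp (Entrez 11576), the fetal serum carrier protein, had 143.32 and 579.25 FPKM in DEN+CCl4 livers, 217.09 and 111.07 in DWYG-M livers, 157.52 and 111.40 in DWYG-H livers, and 0.28 and 0.23 in control livers. DEN+CCl4 replicate 2 was the high library of all 8. The other 5 exposed livers lay within a 2-fold range of each other, and DEN+CCl4 replicate 1 lay among the DWYG livers. Over summed counts scaled by library, the DEN+CCl4 livers held 1190.2 times the Afp of control livers (24222 against 16 reads, 95% interval on the read counts 733 to 2083). DWYG-M livers held 555 times and DWYG-H livers 451 times the control level. Such intervals cover counting error only.

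Spink1 (20730), a Kazal-type trypsin inhibitor made in quantity by the pancreatic acinar cell, had 170.53 and 160.04 FPKM in DEN+CCl4 livers, 77.73 and 48.54 in DWYG-M livers, 189.52 and 57.71 in DWYG-H livers, and 0 and 0.53 in control livers. It was the steadiest of the 8 genes between the DEN+CCl4 livers and the most variable of them between the DWYG-H livers, where replicate 1 was the highest library of all and replicate 2 lay within the DWYG-M range. The control level rested on 1 read, so the ratio is loose: 538 times control in DEN+CCl4 livers (interval on the read counts 96.2 to 21271), 202 times in DWYG-M livers and 402 times in DWYG-H livers.

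Csn3 (12994), kappa-casein, the milk protein that stabilises casein micelles, had 24.44 and 51.46 FPKM in DEN+CCl4 livers, 54.03 and 14.45 in DWYG-M livers, 22.00 and 14.25 in DWYG-H livers, and 0 in both control livers. On FPKM one DWYG-M liver had the highest value of all and the other was close to the lowest exposed liver. With 3 reads over both control libraries as the floor, Csn3 was at least 208-fold higher in DEN+CCl4 livers, at least 191-fold in DWYG-M livers and at least 101-fold in DWYG-H livers.

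Apela (100038489), a small secreted peptide that signals through the apelin receptor and is known from zebrafish heart and endoderm formation, behaved differently. It had 14.68 and 3.42 FPKM in DEN+CCl4 livers, 1.36 and 1.31 in DWYG-M livers, 1.70 and 1.24 in DWYG-H livers, and 0 in both control livers. All 4 DWYG livers sat in a narrow band below both DEN+CCl4 livers. These levels rest on few reads: 178 and 43 in DEN+CCl4 livers, 16 and 16 in DWYG-M livers, 19 and 15 in DWYG-H livers, and 0 in control livers. Against the same floor, Apela was at least 57.9-fold higher in DEN+CCl4 livers, at least 8.97-fold in DWYG-M livers and at least 9.68-fold in DWYG-H livers.

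The other 4 genes encode surface proteins. Gpc3 (14734), a lipid-anchored heparan sulfate proteoglycan that binds growth factors, had 104.96 and 126.93 FPKM in DEN+CCl4 livers, 67.89 and 38.17 in DWYG-M livers, 72.47 and 46.57 in DWYG-H livers, and 0.54 and 0.18 in control livers. Both DEN+CCl4 livers were above all 4 DWYG livers. The scaled counts were 266 times the control level in DEN+CCl4 livers, 127 times in DWYG-M livers and 141 times in DWYG-H livers.

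Tspan8 (216350), a tetraspanin that organises membrane microdomains and is abundant in gut epithelium, had 105.61 and 150.35 FPKM in DEN+CCl4 livers, 118.12 and 71.63 in DWYG-M livers, 119.80 and 76.52 in DWYG-H livers, and 1.09 and 0.72 in control livers. Replicate 1 of each DWYG group lay between the DEN+CCl4 livers and replicate 2 below them. Tspan8 had the smallest ratios to control among the 4 genes with at least 16 control reads, at 121 times in DEN+CCl4 livers, 95.4 times in DWYG-M livers and 96.9 times in DWYG-H livers.

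Cdh17 (12557), the liver-intestine cadherin that joins gut epithelial cells, had 24.89 and 48.19 FPKM in DEN+CCl4 livers, 22.76 and 9.97 in DWYG-M livers, 20.00 and 12.82 in DWYG-H livers, and 0 in both control livers. On FPKM both DEN+CCl4 livers were above all 4 DWYG livers, replicate 1 by a small margin that was lost on TMM-scaled counts per library, where DWYG-M replicate 1 (69.3 CPM) was above DEN+CCl4 replicate 1 (67.5 CPM). Against the floor of 3 control reads it was at least 1123-fold higher in DEN+CCl4 livers, at least 525-fold in DWYG-M livers and at least 519-fold in DWYG-H livers.

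Ly6d (17068) is a lipid-anchored Ly6 protein used as a marker of keratinocytes and of B cell progenitors. Ly6d had the highest group mean FPKM of the 8 in every group, in control livers through replicate 1 alone. It had 347.13 and 794.48 FPKM in DEN+CCl4 livers, 473.72 and 154.52 in DWYG-M livers, 368.76 and 136.11 in DWYG-H livers, and 2.74 and 0.32 in control livers. Replicate 1 of each DWYG group lay within the DEN+CCl4 range and replicate 2 well below it. The scaled counts were 312 times the control level in DEN+CCl4 livers, 173 times in DWYG-M livers and 138 times in DWYG-H livers.

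**Figure D1:**
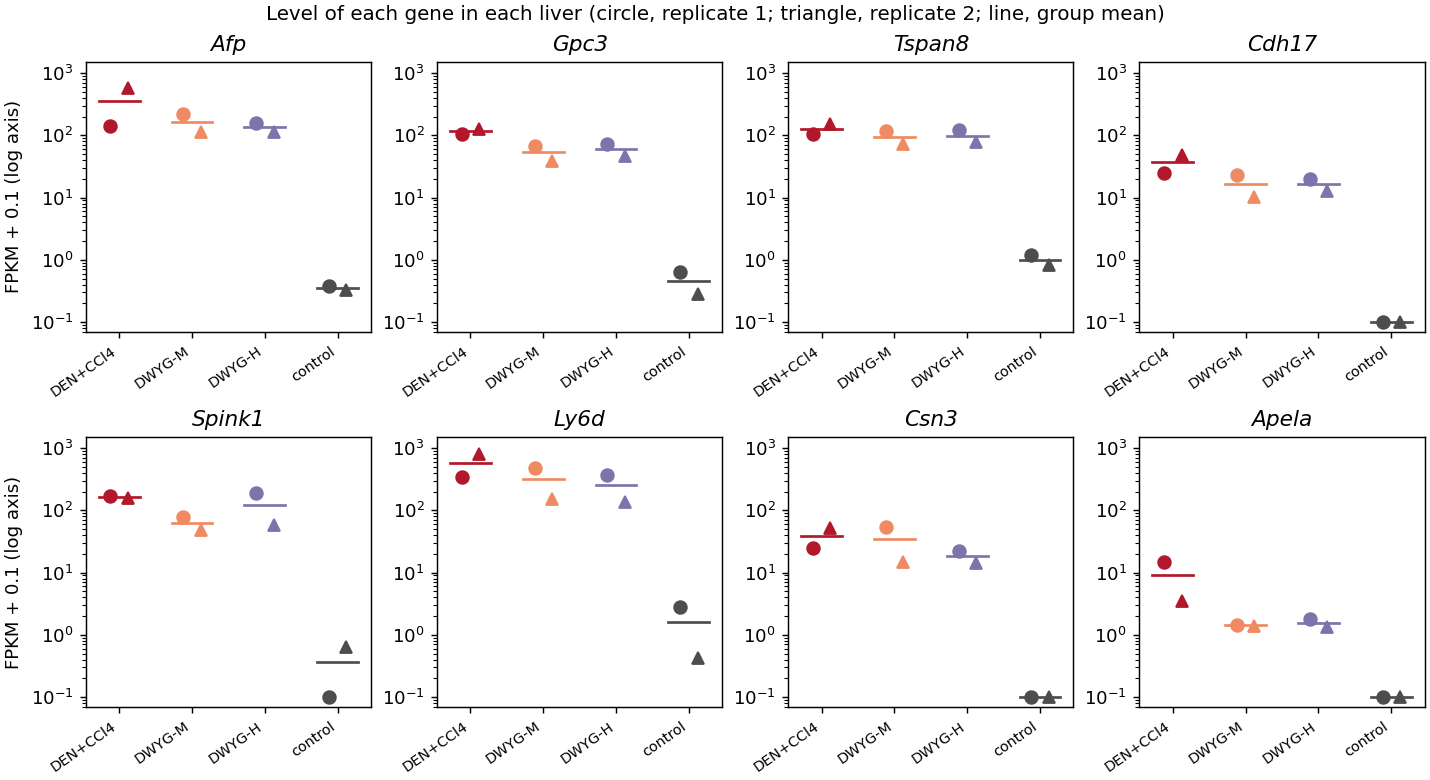
FPKM plus 0.1 (log axis) of each of the 8 genes in DEN+CCl4, DWYG-M, DWYG-H and control livers; circles are replicate 1, triangles replicate 2 and lines group means. Every exposed liver lies above both control livers for every gene, and for Gpc3, Cdh17 and Apela both DEN+CCl4 livers lie above the 4 DWYG livers.

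Because FPKM is scaled to gene length, the genes can be ordered within a group. In DEN+CCl4 livers the mean order was Ly6d, Afp, Spink1, Tspan8, Gpc3, Csn3, Cdh17 and Apela. The replicate values of Ly6d, Afp and Spink1 overlapped from one gene to the next, as did those of Tspan8 and Gpc3 and those of Csn3 and Cdh17. Spink1 stood above Tspan8, Gpc3 above Csn3 and Cdh17 above Apela without overlap. The places of Ly6d above Afp and of Spink1 above Tspan8 rest on the length scaling. Ly6d had 2295 and 5647 reads in DEN+CCl4 livers, and Afp had 4598 and 19624. Spink1 had 335 and 349 reads in DEN+CCl4 livers, and Tspan8 had 2033 and 3030. Ly6d and Afp headed the order in DWYG-M and DWYG-H livers too, and Apela closed it. In the DEN+CCl4 livers Afp stood at or above 96.3% and 99.1% of all genes in the table, and Apela at or above 76.3% and 51.4%. In control livers Afp stood at or above 29.3% and 29.7%. The 8 genes together took 0.0811% and 0.192% of all counts in DEN+CCl4 livers, 0.0913% and 0.0448% in DWYG-M livers, 0.0774% and 0.0473% in DWYG-H livers, and 0.000353% and 0.000179% in control livers. In whole tissue, fewer cells expressing a gene and less RNA per cell cannot be told apart.

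How rare the pattern was by which the genes were chosen depends on the limits set. Limits as wide as the members themselves, at most 2.74 FPKM in both control livers and at least 3.42 FPKM in both DEN+CCl4 livers, held 518 of 17164 genes (3.02%). Just inside these limits were Ly6d, with 2.74 FPKM in a control liver, and Apela, with 3.42 FPKM in a DEN+CCl4 liver. Limits this wide also admit genes whose control and DEN+CCl4 levels are close. Limits of at most 1 FPKM in control and at least 20 FPKM in DEN+CCl4 livers, set after the values were seen, held 9 of the 17164 genes. These were Afp, Gpc3, Cdh17, Spink1 and Csn3 together with Akr1c18, Cyp2a4, Cyp2b9 and Klrb1b. Over all genes tested in DEN+CCl4 against control, 22.2% were called at an adjusted p under 0.05 in edgeR, and 47.1% had both exposed livers above both control livers. The 8 genes all met both, as the choice required.

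Afp lies beside its relatives Alb and Afm in the mouse genome, and those relatives did not share its pattern. Alb had 39625.11 and 60316.02 FPKM in DEN+CCl4 livers, against 38637.24 and 29953.32 in control livers. Afm, which carries vitamin E, had 173.23 and 249.13 FPKM in DEN+CCl4 livers, against 130.08 and 95.31 in control livers. Gc, the vitamin D binding protein of the same family, had 5076.54 and 4697.13 FPKM in DEN+CCl4 livers, against 3727.65 and 3351.15 in control livers. None of the 3 passed the edgeR test, with log2 fold changes of 0.30 (adjusted p = 0.673) for Alb, 0.67 (0.177) for Afm and 0.20 (0.620) for Gc. On TPM, where the median gene was itself 0.498 higher, limma called 2 of the 3 higher. Per 1000 FPKM of Alb there were 3.617 and 9.604 FPKM of Afp in DEN+CCl4 livers, 3.998 and 3.095 in DWYG-M livers, 2.882 and 2.493 in DWYG-H livers, and 0.007247 and 0.007679 in control livers. Set against Alb, DEN+CCl4 replicate 1 lay within the DWYG-M range and above both DWYG-H livers.

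**Figure D2:**
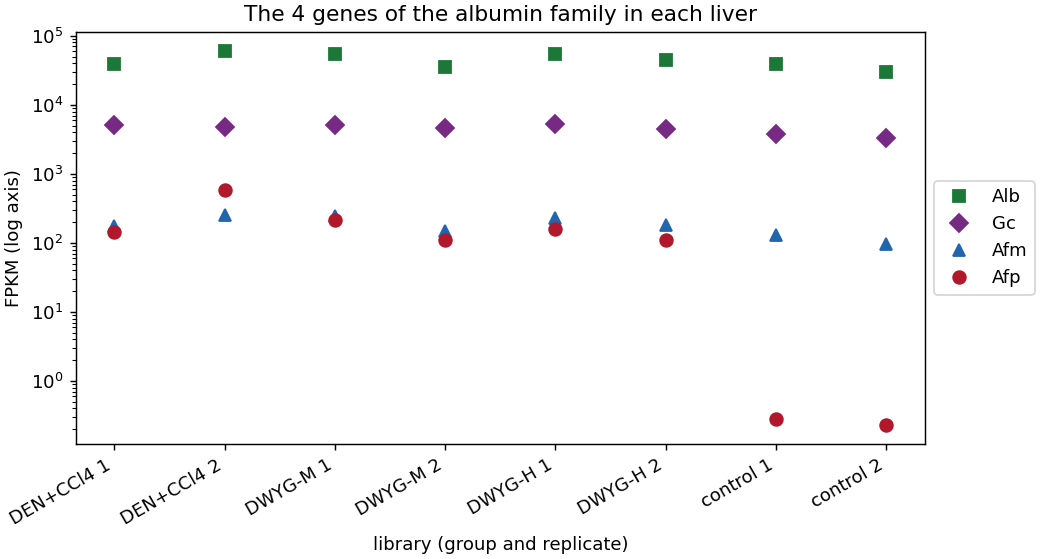
FPKM (log axis) of Alb, Gc, Afm and Afp in each library, 2 libraries per group. Alb, Gc and Afm vary little across all 8 libraries beside Afp, which lies between 111.07 and 579.25 FPKM in exposed livers and at 0.28 and 0.23 FPKM in control livers.

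Few of the factors known to repress or activate the Afp promoter passed the test. Of 18 such genes 17 were tested in DEN+CCl4 against control livers. None was called higher, where 15.1% of all genes were, and 2 were called lower, where 7.12% were. Foxa1, a FOXA family activator, differed by -0.65 (adjusted p = 0.0246) and Cebpa, a hepatocyte factor, by -1.09 (0.0365). Neither call was made on TPM, where the log2 values were -0.06 and -0.50 and 4 other factors of the list were called higher. Foxa1 also missed the threshold without either control or either DEN+CCl4 library (adjusted p up to 0.106), at log2 values from -0.73 to -0.61 over all left-out libraries. Cebpa missed it without either library of control, DEN+CCl4 or DWYG-H (adjusted p up to 0.140), at -1.31 to -0.87. Zhx2 and Zbtb20, the repressors that keep Afp silent after birth in mouse liver, had log2 fold changes of 0.13 (adjusted p = 0.604) and -0.15 (0.687). Zhx2 was among the 4 called higher on TPM (0.59, limma adjusted p = 0.0219), and Zbtb20 was not. Zhx2 had 4.62 and 4.52 FPKM in DEN+CCl4 livers, against 3.79 and 3.26 in control livers. Zbtb20 had 3.58 and 1.96 FPKM in DEN+CCl4 livers, against 2.46 and 2.59 in control livers.

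Next, the livers that received DWYG were set against DEN+CCl4 livers. The DEN+CCl4 values are among those by which the genes were chosen, and both comparisons share them. Such a choice can by itself place other exposed groups lower. The shares and medians over all genes given here are thus no test of the 8 genes as a set. No member was called in DWYG-M against DEN+CCl4, where edgeR called 1 of 11606 genes (0.00862%), nor in DWYG-H against DEN+CCl4, where it called none (0%). At an unadjusted p under 0.05, 3 of the 8 genes passed in DWYG-M, against 12.6% of all genes, and 2 of the 8 in DWYG-H, against 8.49% of all genes. The median log2 fold change of the 8 genes was -1.11 in DWYG-M and -1.09 in DWYG-H, and that of all genes was -0.02 and -0.01. DESeq2 called Apela in each of these comparisons, among 206 genes in DWYG-M and 120 in DWYG-H, and limma called no member.

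On FPKM, Gpc3, Cdh17, Spink1 and Apela had both DWYG-M livers below both DEN+CCl4 livers, as had 25.6% of all genes. On FPKM, Gpc3, Cdh17, Csn3 and Apela had both DWYG-H livers below both DEN+CCl4 livers, as had 23.2% of all genes. On the TMM-scaled counts used for the tests, Cdh17 overlapped in DWYG-M, as given above, and Csn3 in DWYG-H, where replicate 1 (11.9 CPM) was above DEN+CCl4 replicate 1 (11.7 CPM). Apela had the widest difference. Its mean was 1.335 ± 0.03536 FPKM in DWYG-M livers and 1.47 ± 0.3253 in DWYG-H livers, against 9.05 ± 7.962 in DEN+CCl4 livers (SD, n = 2 each). The log2 fold changes were -2.65 (SE 0.657, edgeR adjusted p = 0.261) in DWYG-M and -2.54 (SE 0.652, adjusted p = 0.361) in DWYG-H. Without DEN+CCl4 replicate 2 edgeR called Apela in DWYG-M. Without replicate 1, which held the high value, it did not, and the log2 fold changes were -1.38 in DWYG-M and -1.27 in DWYG-H.

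Gpc3 averaged 53.03 ± 21.02 FPKM in DWYG-M livers and 59.52 ± 18.31 in DWYG-H livers, against 115.94 ± 15.54 in DEN+CCl4 livers (SD, n = 2 each). These are 45.7% and 51.3% of the DEN+CCl4 mean. The log2 fold changes were -1.08 (SE 0.371, edgeR adjusted p = 0.310) in DWYG-M and -0.91 (SE 0.370, adjusted p = 0.571) in DWYG-H. The direction held without any 1 library, with values from -1.56 to -0.73 in DWYG-M and from -1.27 to -0.62 in DWYG-H.

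Afp averaged 164.08 ± 74.97 FPKM in DWYG-M livers and 134.46 ± 32.61 in DWYG-H livers, against 361.28 ± 308.2 in DEN+CCl4 livers (SD, n = 2 each). Its log2 fold changes were -1.15 (SE 0.623, edgeR adjusted p = 0.495) in DWYG-M and -1.43 (SE 0.627, adjusted p = 0.590) in DWYG-H. They rest on DEN+CCl4 replicate 2: without it they were 0.35 and 0.07. Tspan8 differed by -0.36 in DWYG-M (adjusted p = 0.709) and -0.31 in DWYG-H (0.865), and without that library by 0.03 and 0.08. Csn3 differed by -0.15 in DWYG-M (0.953), and by 0.63 without that library, and by -1.05 in DWYG-H (0.721), or -0.27 without it.

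Cdh17 differed by -1.12 in each of DWYG-M and DWYG-H (edgeR adjusted p = 0.410 and 0.597), and by -0.44 and -0.43 without DEN+CCl4 replicate 2. Ly6d differed by -0.89 in DWYG-M and -1.17 in DWYG-H (0.659 and 0.715), and by -0.01 and -0.30 without that library. Spink1 differed by -1.42 in DWYG-M (0.315) and by -0.39 in DWYG-H (0.895), and the second value became 0.22 without DWYG-H replicate 2. The intervals of these differences are wide, as for Ly6d in DWYG-M, from -2.53 to 0.75, so a missed threshold does not show equal levels.

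With the DWYG groups joined, 4 libraries against 2, edgeR called 4 genes (0.0345%) and none of the 8. Apela had the smallest adjusted p (0.141), at a log2 fold change of -2.59 (SE 0.520). Gpc3 followed, at -0.999 (SE 0.309, adjusted p = 0.230). DESeq2 called these 2 genes and no other member, among 321 genes in all. On FPKM, Gpc3, Cdh17 and Apela had all 4 DWYG livers below both DEN+CCl4 livers, as had 16.2% of all genes, and on TMM-scaled counts Cdh17 overlapped.

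The dose comparison sets against each other 2 groups whose values the choice of genes did not name, although all 8 libraries share the model's scaling and spread. No member was called in DWYG-H against DWYG-M, where edgeR called none of 11606 genes (0%) and DESeq2 called 5. None of the 8 had an unadjusted p under 0.05, against 1.66% of all genes, and replicate values overlapped between the doses for all 8. Among all genes tested 13.5% were lower and 13.1% higher in both DWYG-H livers. Spink1 had the largest difference, 123.62 ± 93.2 FPKM in DWYG-H livers against 63.135 ± 20.64 in DWYG-M livers (SD, n = 2 each). Its log2 fold change was 1.03 with a 95% interval from -0.11 to 2.16 (edgeR adjusted p = 1). Without DWYG-H replicate 1 it was -0.04. Csn3 had 18.125 ± 5.48 FPKM in DWYG-H livers against 34.24 ± 27.99 in DWYG-M livers, a log2 fold change of -0.90 with an interval from -2.43 to 0.63. The other 6 genes lay between -0.28 and 0.17, and the interval of Afp, from -1.70 to 1.14, shows how large a dose difference these 4 livers leave room for.

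**Figure D3:**
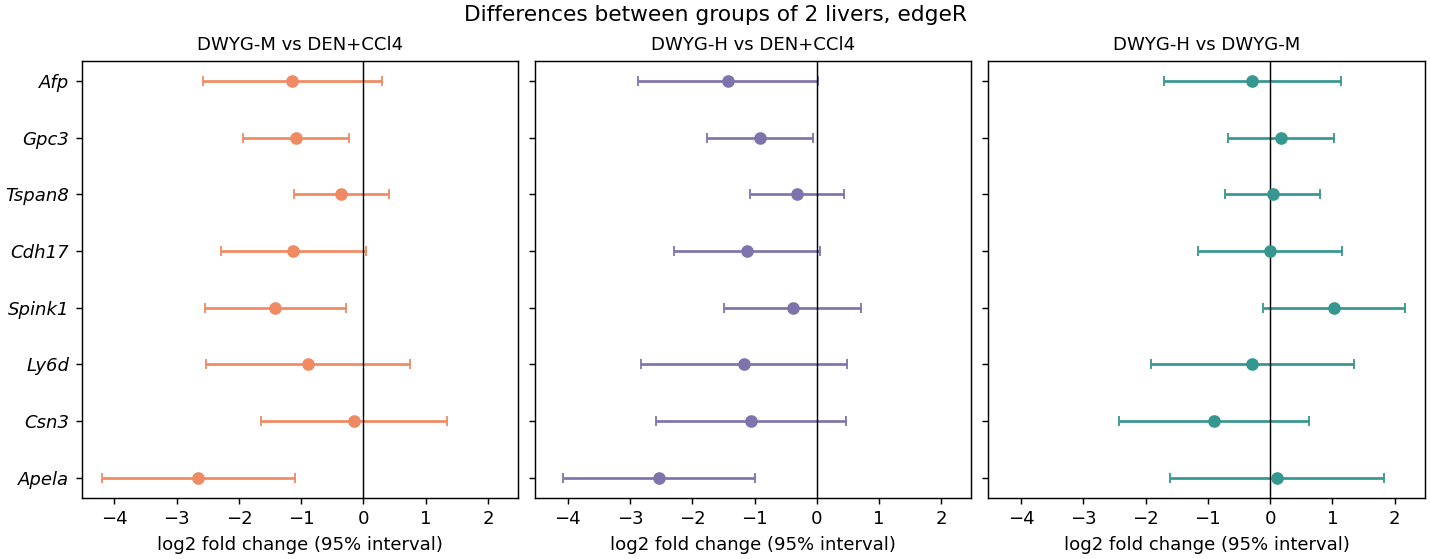
Log2 fold changes of the 8 genes with 95% intervals from edgeR, for DWYG-M and for DWYG-H against DEN+CCl4 livers and for DWYG-H against DWYG-M livers, 2 livers per group. The values against DEN+CCl4 lie between -2.65 and -0.15, and those between the doses between -0.90 and 1.03.

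Expression of all 8 genes was above control in the livers that received DWYG. These comparisons use the control livers by which the genes were chosen, so the counts are given as a description and carry no test of the members. All but Apela, 7 of the 8 genes, were among the genes edgeR called in DWYG-M against control, 4.95% of all genes (4.35% higher). The same 7 were among those called in DWYG-H against control, 7.69% of all genes (6.59% higher). All 8 genes had both DWYG livers above both control livers in each comparison, as had 49.2% of genes in DWYG-M and 46.9% in DWYG-H. Calls over all genes thinned when a control liver was left out. Without control replicate 1 there were 52 in DWYG-M, 3 of them members, and 151 in DWYG-H, 5 of them members. Without control replicate 2 there were 39 in DWYG-M and 77 in DWYG-H, 3 of them members in each. With any 1 library left out, the log2 fold change of Afp against control ran from 8.53 to 9.49 in DWYG-M and from 8.51 to 9.05 in DWYG-H. Gpc3, Tspan8 and Cdh17 were among the genes called without either control liver in both comparisons.

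Livers of a group differed in the same order for most of the 8 genes. On FPKM, replicate 1 was above replicate 2 for all 8 genes in DWYG-M and in DWYG-H livers. Among all genes tested 50% and 45.5% had that order. On FPKM in DEN+CCl4 livers, replicate 2 was above replicate 1 for 6 of the 8, all but Spink1 and Apela. Of all genes, 32.7% had that order. Alb had the same order in these 3 groups, with 54296.00 and 35882.34 FPKM in DWYG-M livers and 54657.91 and 44679.15 in DWYG-H livers. On TMM-scaled counts 2 of these orders turned round. Apela had 0.847 CPM in DWYG-M replicate 1 and 0.865 in replicate 2. Spink1 had 16.1 CPM in DEN+CCl4 replicate 1 and 18.2 in replicate 2. Whether library makeup and the genes' levels are linked was not tested. On mean-centred log2 CPM over the 6 exposed livers, Gpc3 and Cdh17 were closest, with a root mean square difference of 0.228. Apela stood furthest from all others, at 0.907 to 1.35.

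**Figure D4:**
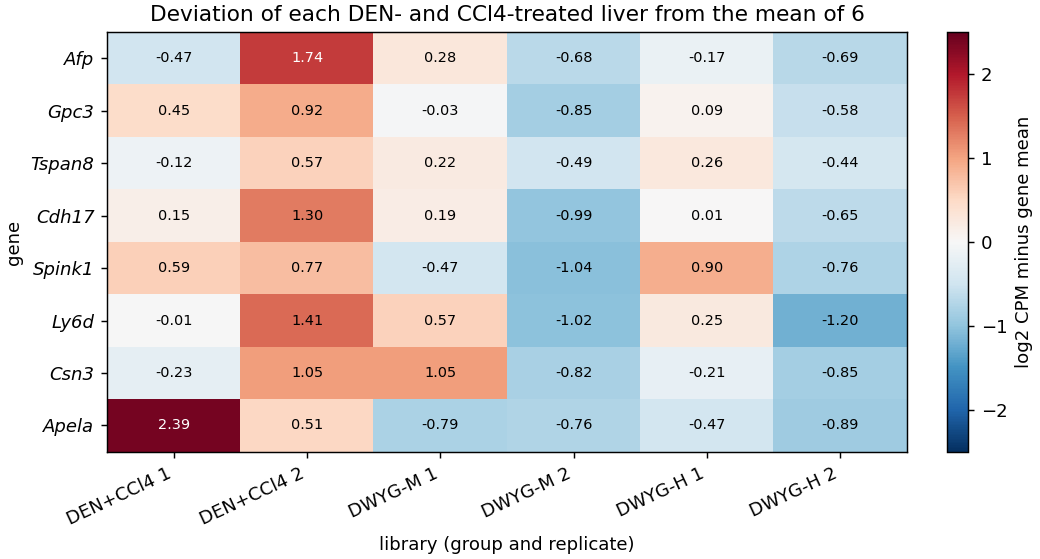
Log2 CPM (counts scaled to library size) of each of the 8 genes (rows) in each of the 6 exposed livers (columns), minus the gene's mean over those livers. DEN+CCl4 replicate 2 reaches 1.74 for Afp, DEN+CCl4 replicate 1 reaches 2.39 for Apela, and replicate 2 of each DWYG group is below 0 for every gene.

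The genes most like each member were sought over all 8 libraries by the same measure. Akr1c18, a hydroxysteroid dehydrogenase, was closest to Afp (0.481) and to Cdh17 (0.348), and Cyp2b9 and Klrb1b completed the nearest 3 of both. Akr1c18 had 159.16 and 302.44 FPKM in DEN+CCl4 livers, against 0.19 and 0.07 in control livers. Lcn2, an iron-siderophore carrier, was closest to Gpc3 (0.366), ahead of Igfbp1 and Kif5c. It had 1329.45 and 1573.65 FPKM in DEN+CCl4 livers, against 4.62 and 2.52 in control livers. Tspan8 was nearest to Erich4, Kif5c and Cdhr2, and Cdhr2 encodes a protocadherin of the gut brush border. Spink1 was nearest to Miox, Erich4 and Cdhr2, Ly6d to Cpe, Igfbp1 and Cyp2b9, Csn3 to Kif5c, Cdhr2 and Klrb1b, and Apela to Gm3776, Cbr3 and Orm2.

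These neighbours reflect the step between control and exposed livers, and over the 6 exposed livers alone no member kept any of its own nearest 3. There Spink1 was nearest to Prc1, Ccna2 and Cdca3, genes of cell division. Gpc3 was nearest to Stmn1, Apcs and Cenpa, Cdh17 to Cyp2a4 (0.0887), Tnfrsf12a and Cpe, and Apela to Jun, Slc7a11 and Rcan1. Jun, an immediate early transcription factor, had 98.09 and 16.40 FPKM in DEN+CCl4 livers, so that its high library was that of Apela.

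Other genes of the same classes were counted in DEN+CCl4 against control livers, where edgeR called 15.1% of genes higher and 7.12% lower. All the gene lists were drawn up with earlier results of these data known. List genes near 0 in control livers passed the low-value filter only through exposed livers, so they could only rise. The shares over all genes are thus background to the lists and no test of them. On TPM, limma called 5313 of the 11606 genes higher and 135 lower, so counts of higher genes in the lists were mostly larger there. Of 40 other oncofetal and liver tumour genes 29 were tested, and 21 rose and none fell (26 and none on TPM). Of the 37 in the table, 8 stayed under 1 FPKM in every library and were not tested. Among these were Lin28b, Sall4, Hmga2, Dlk1 and Igf2bp3, which reached at most 0.01, 0.05, 0.21, 0.64 and 0.65 FPKM. Akr1c18, Lcn2 and the stem cell surface genes Cd24a and Prom1 led the list and kept their calls without any 1 library. Cd24a rose by 2.83 on the log2 scale (adjusted p = 0.000362) and Prom1 by 5.51 (0.000842). Without control replicate 2 the list's count was 15. In DWYG-M against control 16 of the 29 were called higher, where 4.35% of all genes were. In DWYG-H against control 16 were called higher, where 6.59% of all genes were. Cd24a was the one gene of the list called in the joint DWYG groups against DEN+CCl4. It had 7.20 and 7.69 FPKM in DWYG-M livers and 5.70 and 6.31 in DWYG-H livers, against 19.63 and 17.63 in DEN+CCl4 livers.

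Among 13 tested glypicans and heparan sulfate partners, 3 rose and 1 fell (9 and 1 on TPM). Sulf1 and Sulf2, which trim heparan sulfate, rose by 3.34 and 1.25 on the log2 scale. Gpc6, another glypican, rose by 2.63 (edgeR adjusted p = 0.012). It had 1.22 and 2.81 FPKM in DEN+CCl4 livers, against 0.23 and 0.32 in control livers. Notum, which releases glypicans from the membrane, fell by 1.55. Gpc4, beside Gpc3 in the genome, did not pass (log2 fold change 0.45, adjusted p = 0.215). The count of 3 became 1 without either control library, and the call of Notum held in each.

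Of 21 tested tetraspanins other than Tspan8, 11 rose and 1 fell (18 and none on TPM), and without control replicate 2 the count of 11 was 2. Cd63, of late endosomes, rose by 4.81 (adjusted p = 0.00101) and Cd9 by 2.25 (0.00134), and both kept their calls without any 1 library. Of 11 tested cadherins and partners of Cdh17, 3 rose and none fell (8 and none on TPM). Cdhr2 had 4.12 and 8.86 FPKM in DEN+CCl4 livers, against 0.01 and 0.05 in control livers, and Itga2, an integrin, had 0.85 and 1.60 in DEN+CCl4 livers, against 0.03 and 0.04 in control livers.

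Of 6 tested Ly6 genes other than Ly6d, 3 rose (5 on TPM). Ly6e rose by 2.00 (adjusted p = 0.00121) and held without any 1 library, Ly6c1 lost its call without control replicate 2, and Ly6a without either control library or DEN+CCl4 replicate 1. Lynx1, beside Ly6d in the genome, had 1.68 and 2.98 FPKM in DEN+CCl4 livers, against 0.33 and 0.16 in control livers. It rose by 2.99 (adjusted p = 0.00653), and without control replicate 2 the adjusted p was 0.0600.

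Few genes related to the 3 remaining products passed the low-value filter. Aplnr, the receptor of Apela, reached at most 0.26 FPKM in any library, and Apln, the other ligand, at most 0.72. Of 6 genes of milk proteins and their control in the table, only Prlr, Stat5a and Stat5b were tested, and none was called. Of 14 other Kazal inhibitors and trypsins with their receptor partner only Egfr was tested, at -0.09 and not called. Egfr itself was well expressed, with 87.11 and 92.36 FPKM in DEN+CCl4 livers, against 96.37 and 105.65 in control livers. Spink4 had 8.40 FPKM in DEN+CCl4 replicate 1 and 0 in the other 7 libraries.

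Because several members are known from other tissues, markers of those tissues were measured in the same libraries. Pancreatic acinar markers, of which 11 of 18 were in the table, summed to 25.32 and 34.30 FPKM in DEN+CCl4 livers, 31.21 and 14.09 in DWYG-M livers, 33.90 and 22.38 in DWYG-H livers, and 11.82 and 11.76 in control livers. Most of it was Cela1, an elastase, and 9 of the 11 stayed under 1 FPKM everywhere. The 2 tested markers did not pass in DEN+CCl4 against control: Cela1 differed by 1.01 (edgeR adjusted p = 0.112) and Bhlha15, an acinar transcription factor, by 2.45 (0.0501). Limma on TPM called both higher. Bhlha15 had 3.32 and 3.51 FPKM in DEN+CCl4 livers, against 0.63 and 0.42 in control livers. Pnlip, Prss2 and Cel, digestive enzymes that define the acinar cell, reached at most 0.22 FPKM in any library. The part of acinar markers in the level of Spink1 was not tested.

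Mammary markers, of which 2 of 6 were in the table, summed to at most 0.10 FPKM. Of 20 intestinal markers 16 were in the table and 7 were tested, and Tff3, Cdhr2, Krt20 and Apoa4 rose, 4 genes that became 2 without either control library. Muc2, the mucin of goblet cells, reached at most 0.02 FPKM. Their sum was 1453 and 4921 FPKM in DEN+CCl4 livers, 3227 and 1850 in DWYG-M livers, 4320 and 1987 in DWYG-H livers, and 524.3 and 629.4 in control livers. Most of that sum was Apoa4, which liver also makes. The part of intestinal markers in the values of Cdh17 and Tspan8 was not tested.

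Squamous markers rose in 3 of 3 tested genes, of 13 listed and 9 in the table, and in 2 without either control or either DEN+CCl4 library. Those 3 genes passed the low-value filter only through exposed livers, so the filter largely set that count. The other 6 in the table stayed under 1 FPKM everywhere. Squamous markers summed to 23.73 and 22.51 FPKM in DEN+CCl4 livers and 5.57 and 3.75 in DWYG-M livers. The sums were 5.84 and 6.12 in DWYG-H livers and 0.36 and 0.43 in control livers. Sprr1a, of the cornified envelope, had 18.42 and 17.88 FPKM in DEN+CCl4 livers and 0 in control livers. Krt5, of basal keratinocytes, had 3.09 and 2.49 FPKM in DEN+CCl4 livers and 0 in control livers. Krt14, its partner, reached at most 0.47. B cell markers were called in none of 3 tested genes and summed to 6.96 and 11.55 FPKM in DEN+CCl4 livers, against 7.31 and 3.83 in control livers. The part of either in the level of Ly6d was not tested.

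Cholangiocyte and ductular markers rose in 11 of 15 tested genes and fell in none (13 and none on TPM), and in 8 without control replicate 2. They summed to 482.7 and 611.0 FPKM in DEN+CCl4 livers, 370.1 and 315.1 in DWYG-M livers, 366.6 and 404.5 in DWYG-H livers, and 137.9 and 123.0 in control livers. Epcam, on ductular and progenitor cells, and Spp1, osteopontin, kept their calls without any 1 library. Cell cycle markers rose in 18 of 18 tested genes, and in 10 without control replicate 2. They summed to 106.0 and 100.1 FPKM in DEN+CCl4 livers, 52.27 and 27.76 in DWYG-M livers, 79.21 and 41.34 in DWYG-H livers, and 11.99 and 8.39 in control livers. As for the 8 members on FPKM, replicate 2 was the lower liver in each DWYG group. Adult hepatocyte markers were called lower in 1 of 17 tested genes, Cyp2e1, which had 1505.71 and 678.09 FPKM in DEN+CCl4 livers, against 4614.81 and 5500.18 in control livers. The part of ductular cells or of dividing cells in the members' levels was not tested.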

How the data were processed

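Per the labels' protocols, liver RNA was isolated with an Ambion kit, and SMART-Seq mRNA LP (Takara) libraries were built on 2 µg of it. Reads were placed on GRCm39, per the submitters' processing notes. Since aligner, counter, annotation and strand use were not given in the sources used here, overlapping and antisense genes, and near-identical copies such as Cyp2a4, are uncertain. The authors' deposited read counts were taken to be expected counts, because only 89.8% to 91.5% of values per library were whole within 0.005. The deposited FPKM and TPM values were used as levels and in alternatives. The normalized read counts (signal) deposited by the authors served only to read off library factors (0.842 to 1.26), and the authors' group averages were not used.

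Expected counts were rounded and tested with edgeR 4.0.16 (R 4.3.3) by the quasi-likelihood test with TMM scaling, in 1 model of 4 groups over 8 libraries with 4 residual degrees of freedom and a common dispersion of 0.0377. Benjamini-Hochberg adjustment ran over all 11606 genes, with a call at an adjusted p under 0.05. The scripts were tested on simulated data. Each library is a separate mouse liver per the study's design, and groups of 2 give p-values little power. limma 3.58.1, DESeq2 1.42.0, other filters, pseudocounts, scalings, a replicate block and leaving out each library were the alternatives. The members and gene lists were chosen with earlier results of these data known, and the lists come from general knowledge. Named genes are the 8 members, the 3 nearest profiles of each (root mean square difference of mean-centred log2 CPM, prior count 2, mean FPKM of at least 5 in a group), up to 4 genes of each list with the smallest p in DEN+CCl4 against control, the highest marker of each other cell type, and Zhx2, Zbtb20, Alb, Afm, Gc and Aplnr. Other genes named (defining markers near 0, oncofetal genes under 1 FPKM, Spink4, Apln, Gpc4, Lynx1, and nearest profiles over 6 livers) were chosen after their values were seen.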

Additional observations from a re-analysis of the deposited data

How the results depend on the processing

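With 2 livers per group, counts of called genes moved widely over 18 alternatives per comparison, 8 of which left out 1 library each. Genes called in DWYG-M against DEN+CCl4 were 206 with DESeq2, 2 with limma on log2(FPKM + 1), 3 with a pseudocount of 0.1, 2 on TPM and 1 to 29 with a library left out. Of members, 1 was called by DESeq2 and 0 to 1 with a library left out. In DWYG-H against DEN+CCl4 the genes called were 120 with DESeq2, 4 without the filter, 3 with limma on log2(FPKM + 1), 1 on TPM and 0 to 17 with a library left out. DESeq2 called 1 member there. With the DWYG groups together the genes were 321 with DESeq2, 30 without the filter, 9 with limma on log2(FPKM + 1), 27 on TPM and 0 to 69 with a library left out. Of members, DESeq2 called 2 and leaving out a library gave 0 to 1. In DWYG-H against DWYG-M the genes were 5 with DESeq2 and 0 to 2 with a library left out.

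Against control, DWYG-M gave 1007 genes with DESeq2, 1069 with limma on log2(FPKM + 0.1), 2820 on TPM and 39 to 844 with a library left out, where 3 to 8 members were called. DWYG-H gave 1385, 1431 and 3369 in the same order and 77 to 1248 with a library left out, where 3 to 8 members were called. DEN+CCl4 gave 5448 on TPM (5313 higher and 135 lower, against 1756 and 826 with TMM), 1669 in a model of those 2 groups alone and 812 to 2845 with a library left out. On TPM the median gene was shifted by 0.395 in DWYG-M, 0.407 in DWYG-H and 0.498 in DEN+CCl4 against control.

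Same-numbered livers did not deviate together (correlations from -0.143 to 0.255), so the replicate numbers are not a pairing. With the replicate block 0 genes were called in DWYG-M and 0 in DWYG groups together against DEN+CCl4, and no member's call changed.

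With a library left out, log2 fold changes changed sign as follows. Against DEN+CCl4 in DWYG-M, Afp ran from -1.86 to 0.35, Tspan8 from -0.75 to 0.033 and Csn3 from -1.38 to 0.63. In DWYG-H, Afp ran from -2.15 to 0.067, Tspan8 from -0.69 to 0.075 and Spink1 from -1.45 to 0.22. With the DWYG groups together, Afp ran from -2.01 to 0.21, Tspan8 from -0.64 to 0.054 and Csn3 from -1.22 to 0.18. Between the doses, Afp ran from -0.68 to 0.28, Gpc3 from -0.20 to 0.64, Tspan8 from -0.35 to 0.44, Cdh17 from -0.47 to 0.71, Spink1 from -0.041 to 1.64, Ly6d from -1.18 to 0.72, Csn3 from -1.55 to 0.33 and Apela from -0.13 to 0.34. Cdh17 between the doses was also -0.0028 with DESeq2's size factors, -0.0023 with DESeq2 and -0.012 without the filter, against 0.0024. All other member values against DEN+CCl4 kept their direction under these alternatives. Of these, Ly6d ran from -1.89 to -0.011 in DWYG-M and from -2.06 to -0.30 in DWYG-H, and Cdh17 ran from -1.83 to -0.44 in DWYG-M and from -1.59 to -0.43 in DWYG-H.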
